A study of Oryza sativa with 16 samples.

Results

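In rice (Oryza sativa) shoot apical meristems, 76 genes had lower transcript levels in the d1 mutant than in wild type (WT) at both late stages sampled, stages 4 and 7. They were taken from 19757 genes that reached 1 FPKM (fragments scaled by transcript length and by the library total) in at least 2 of the 8 columns of the authors' table, so they make up 0.385% of the genes examined. A gene was kept when the difference of log2(FPKM + 1), d1 minus WT, was -1 or below at stage 4 and at stage 7 and was under 1 at stage 2. The genes were thus chosen by the measured differences at these 3 stages, which are given below as a description. The difference at stage 1 had no part in the choice.

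The groups were d1 plants, which carry the d1-1 allele of RGA1, and WT plants, each at stages 1, 2, 4 and 7 of panicle initiation. Each of the 8 groups had 2 libraries, and the authors' table gives 1 combined FPKM value per gene and group, so no value below has an SD or a replicate check. All plants were 3 months old and had grown for 100 days in pots in a greenhouse. The labels do not define the stage numbers, do not name the WT cultivar, and cover 1 mutant allele.

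RGA1 encodes the alpha subunit of the heterotrimeric G protein, a membrane-bound switch that passes signals from receptors to targets inside the cell. Rice plants that lack it are dwarfed, with broad dark leaves, compact panicles and short round grains. At panicle initiation the shoot apical meristem stops making leaves and starts to form branches and then spikelets, so the cells sampled change in kind as the stages advance. The row taken from general knowledge to be RGA1, OS05G0333200, had 22.0, 20.9, 23.6 and 24.1 FPKM in d1 at stages 1, 2, 4 and 7, against 27.5, 29.6, 30.2 and 29.8 FPKM in WT. It was lower in d1 at each stage, by -0.35 at stage 4 and -0.29 at stage 7 on the log2 scale. It thus did not meet the rule, which needs -1 or below at both.

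The genes can be given by identifier only, because neither the authors' table nor the reference gene table used here pairs any of the 76 with a name, and no role is assigned to them. For the same reason markers of the meristem, of leaf or of other tissue were not read from the table, and their part in the results was not tested. In bulk tissue, fewer cells of a type and less RNA per cell cannot be told apart. The summed FPKM of all rows lay between 640850 and 670519 in the d1 columns and between 621238 and 650606 in the WT columns. Depth behind single values is unknown.

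Most of the 76 genes were moderately or weakly expressed. Their mean WT level over stages 4 and 7 was under 5 FPKM for 31 genes, from 5 to under 50 FPKM for 35 and 50 FPKM or more for 10. A difference of -1 on this scale needs a WT value of at least 1 FPKM, so every gene was above that level in WT at both late stages. In d1, 31 genes were under 1 FPKM at both late stages, and 10 were listed at 0 at stage 4 or 7. The median level was 1.07, 1.12, 1.27 and 1.24 FPKM in d1 at stages 1, 2, 4 and 7, against 2.22, 2.83, 6.38 and 8.05 FPKM in WT. The d1 medians were thus nearly level over the 4 stages, while the WT medians were highest at stage 7. Over all tested genes the medians were 11.4, 11.3, 11.5 and 11.6 FPKM in d1 and 11.2, 11.1, 11.6 and 11.9 FPKM in WT. How many of all tested genes fell in the level classes above, or were listed at 0, was not counted.

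**Figure D1:**
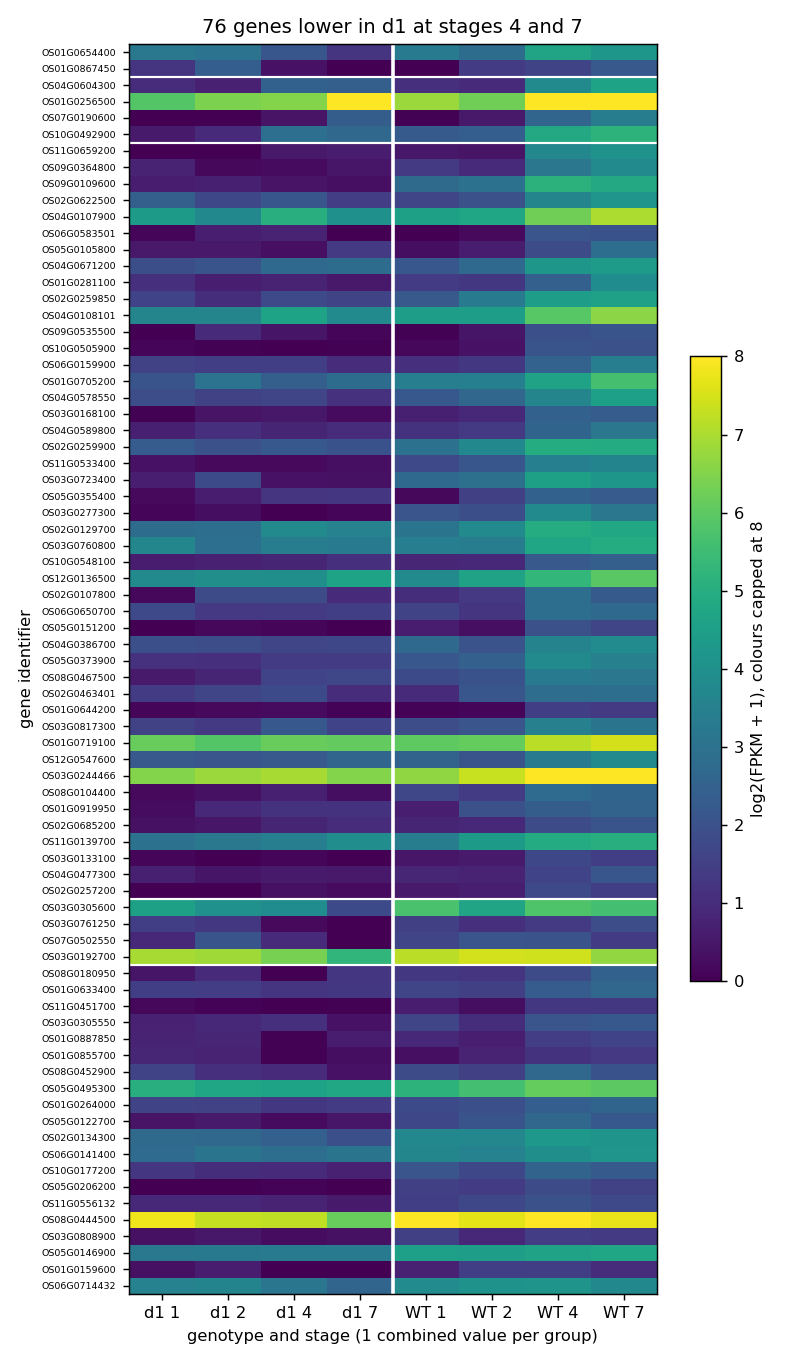
Level of each of the 76 genes as log2(FPKM + 1), with the 4 d1 columns left of the 4 WT columns and stages 1, 2, 4 and 7 in order. White lines across separate the genes by their change from early to late stages, from top to bottom: WT higher and d1 lower by 1 or more (2 genes), both higher (4), WT higher with d1 within 1 (46), WT within 1 with d1 lower (4) and both within 1 (20); most rows brighten in the last 2 WT columns and stay dark in d1.

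At stage 4 the differences ran from -4.73 to -1.02 on the log2 scale with a median of -1.47, and at stage 7 from -4.48 to -1.01 with a median of -1.58. The median over all tested genes was 0.00 at stage 4 and 0.01 at stage 7. In linear terms the median gene had 20.7% of its WT FPKM in d1 at stage 4 and 15.5% at stage 7. The difference was larger at stage 7 for 48 genes and larger at stage 4 for 28. Among all tested genes, 0.957% were lower in d1 by at least 1 at stage 4, 1.53% at stage 7 and 0.461% at both. As the rule used these contrasts, nothing is read from the counts. The 27 genes that met the mirrored rule, higher in d1 at both late stages, are fewer than the 76.

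The 6 genes with the lowest mean late difference were under 1 FPKM in d1 at stages 4 and 7, where WT had between 8.02 and 34.4 FPKM. The lowest was OS09G0109600 on chromosome 9, at 0.573, 0.644, 0.330 and 0.260 FPKM in d1 at stages 1, 2, 4 and 7, against 5.77, 6.85, 34.4 and 27.2 FPKM in WT. Its late d1 values were 0.959% and 0.955% of the WT values. OS03G0723400 on chromosome 3 had 0.577, 2.50, 0.321 and 0.290 FPKM in d1 and 5.68, 6.68, 22.5 and 17.7 FPKM in WT. Both genes had their highest WT value at stage 4, and in both all 4 d1 values lay below all 4 WT values.

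OS03G0277300, also on chromosome 3, never exceeded 0.238 FPKM in d1 and had 3.28, 2.80, 12.8 and 8.10 FPKM in WT. OS11G0533400 on chromosome 11 had 0.315, 0.140, 0.160 and 0.251 FPKM in d1, against 2.41, 3.42, 9.92 and 11.2 FPKM in WT. For these 2 genes, too, the d1 and WT values did not overlap.

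The remaining 2 of the 6 genes were low in both genotypes at first. OS11G0659200 on chromosome 11 was listed at 0 in d1 at stages 1 and 2 and had 0.450 and 0.564 FPKM at stages 4 and 7, while WT had 0.434, 0.354, 12.0 and 16.3 FPKM. OS09G0364800 on chromosome 9 had 0.750, 0.129, 0.170 and 0.399 FPKM in d1 and 1.54, 0.928, 8.02 and 13.1 FPKM in WT. At stages 1 and 2 these genes differed little between d1 and WT in absolute level, and the absolute gap was wider from stage 4 on. Relative to WT, d1 was already lower at stages 1 and 2, at levels near 0 where a ratio is unreliable.

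**Figure D2:**
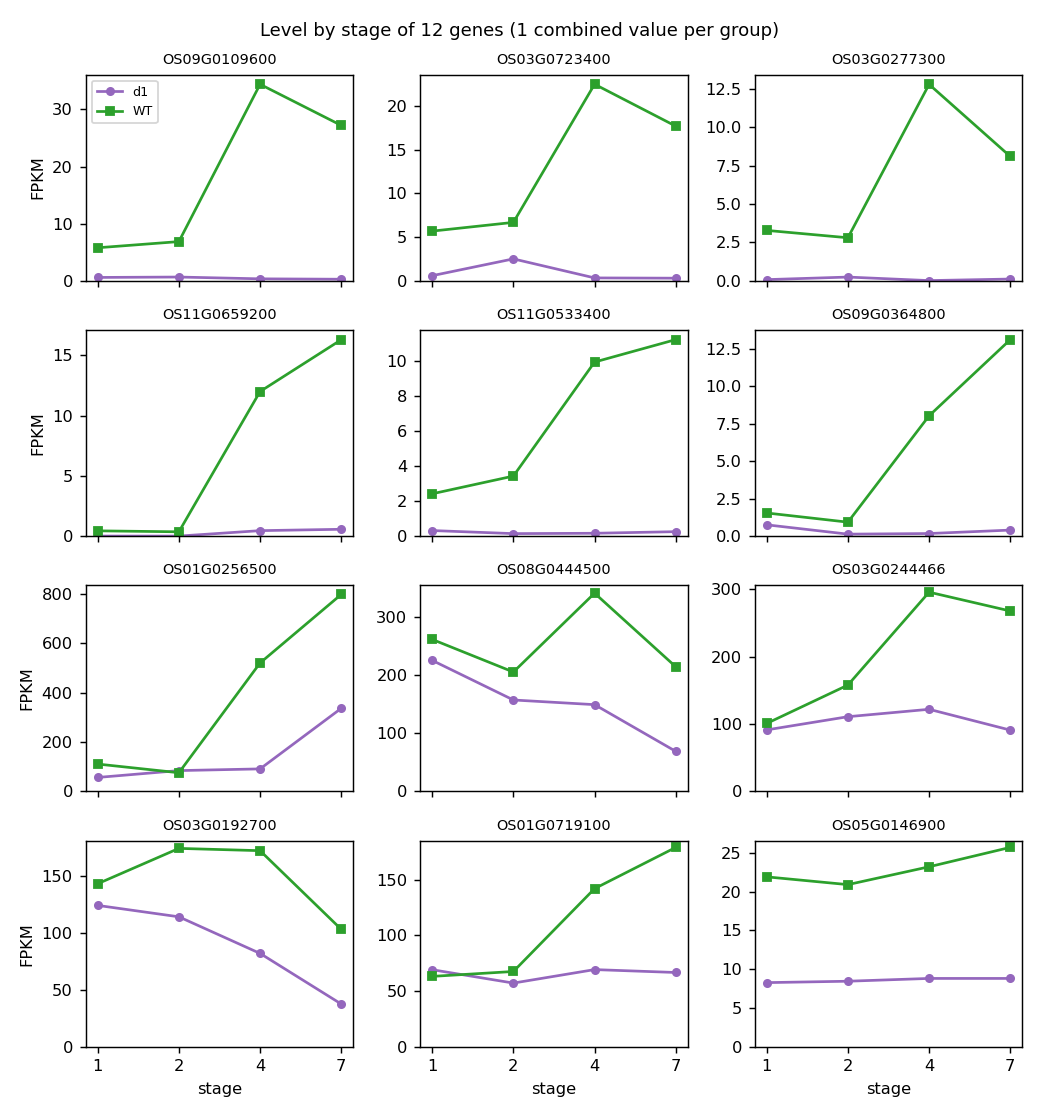
FPKM of 12 genes at stages 1, 2, 4 and 7 in d1 (circles) and WT (squares), each on its own linear axis from 0. The first 6 have the lowest mean late difference, the next 5 the highest WT mean, and the last, OS05G0146900, was added after its values were seen; the d1 line of the first 6 genes stays near 0 while the WT line is highest at stage 4 or 7.

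The 5 most abundant genes carried most of the summed signal. OS01G0256500 on chromosome 1 had 56.7, 84.5, 91.4 and 337 FPKM in d1 and 111, 75.8, 521 and 799 FPKM in WT. The d1 value at stage 7 was thus above the WT values of stages 1 and 2 and below those of stages 4 and 7. OS03G0244466 on chromosome 3 had 91.4, 111, 122 and 91.1 FPKM in d1, against 101, 158, 296 and 268 FPKM in WT. OS01G0719100 on chromosome 1 had 69.2, 57.2, 69.3 and 66.7 FPKM in d1 and 63.2, 67.6, 142 and 179 FPKM in WT, so that the genotypes were nearly equal at stage 1 and the d1 level stayed flat.

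In the other 2 abundant genes it was the d1 level that was lower late. OS08G0444500 on chromosome 8 had 225, 157, 149 and 68.8 FPKM in d1, against 261, 205, 340.4 and 214 FPKM in WT. OS03G0192700 on chromosome 3 had 124, 114, 81.9 and 37.5 FPKM in d1 and 143, 174, 172 and 103 FPKM in WT. In this gene both genotypes were lowest at stage 7, and the d1 level was 36.4% of WT there. Summed over the 71 other genes, the level was 222, 209, 246 and 212 FPKM in d1 at stages 1, 2, 4 and 7, against 355, 392, 925 and 1096 FPKM in WT. The 5 abundant genes made up 959 of the 1637 FPKM by which WT exceeded d1 in the sum of all 76 at stage 4, and 962 of 1847 FPKM at stage 7.

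Next it was examined how each genotype changed from the early stages (1 and 2) to the late stages (4 and 7). The mean of log2(FPKM + 1) was higher late than early by at least 1 for 4 of the 76 genes in d1 and for 52 in WT, where 4.38% of all tested genes were in d1 and 4.84% in WT. A decrease of at least 1 was seen for 6 genes in d1 and for 0 in WT, where 2.45% of all genes were in d1 and 1.41% in WT. The median change was -0.02 in d1 and 1.33 in WT, against -0.02 and 0.00 over all tested genes. The WT value was higher at both late stages than at both early stages for 68 genes (29.3% of all tested genes), and the d1 value for 21 (28.6%). The highest WT value lay at stage 7 for 41 genes and at stage 4 for 32 (30.7% and 20% of all tested genes). In d1 the highest value was spread over the stages, with 25, 17, 19 and 15 genes at stages 1, 2, 4 and 7, where 31.9%, 18.1%, 19.8% and 30.2% of all tested genes had theirs. The rule favours genes that are high in WT and low in d1 at the late stages, so these counts describe the set and are no test.

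**Figure D3:**
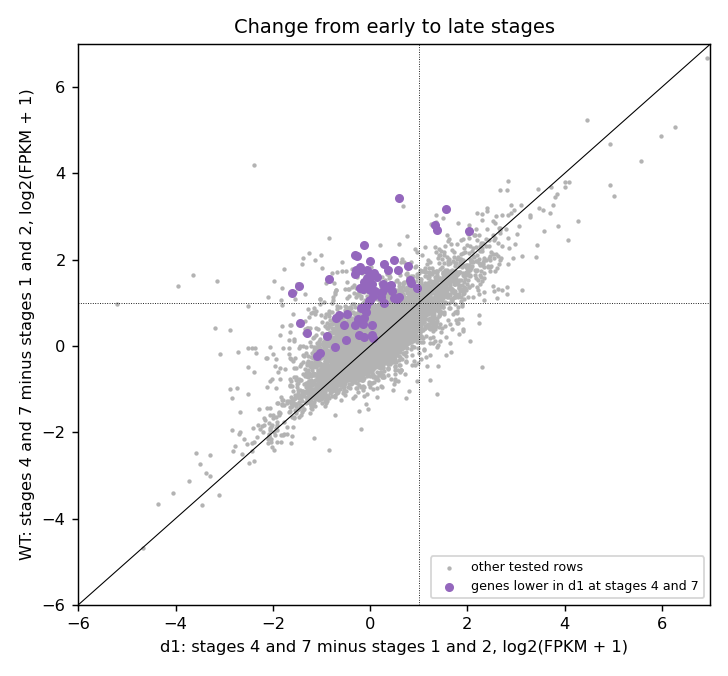
Change from stages 1 and 2 to stages 4 and 7, as the difference of mean log2(FPKM + 1), in d1 (horizontal axis) and WT (vertical axis). Each point is a gene, purple for the 76 genes and grey for the other tested genes; the diagonal marks equal change and the dotted lines a change of 1, and 46 of the 76 genes lie above the horizontal dotted line with a d1 change within 1 of 0.

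Sorted in this way after the values were seen, 46 genes were higher late by at least 1 in WT while d1 changed by less than 1. Of all tested genes, 1.68% did so. Their d1 change ran from -0.85 to 0.96 with a median of 0.07, and their WT change from 1.00 to 3.43 with a median of 1.46. In 15 of the 46 the d1 level stayed under 1 FPKM at every stage. In 4 genes both genotypes were higher late by at least 1, by 1.33 to 2.03 in d1 and by 2.66 to 3.19 in WT, as were 3.05% of all tested genes. In 2 genes d1 was lower and WT higher late by at least 1, which held for 0.111% of all tested genes. OS07G0190600 on chromosome 7, one of the 4 genes higher in both, had 0.00516, 0.0132, 0.335 and 4.10 FPKM in d1 and 0.0255, 0.464, 5.11 and 9.31 FPKM in WT. Its d1 level at stage 7 lay just below its WT level at stage 4.

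A further 20 genes changed by less than 1 in both genotypes, as did 91.1% of all tested genes. Changes under 1 still leave room for a stage course, as in OS08G0444500 above, which is one of the 20. Of these, 4 lie on chromosome 5 and 14 had a mean late WT level under 5 FPKM. One of the 20, OS05G0146900 on chromosome 5, was level in both genotypes, at 8.27, 8.45, 8.81 and 8.81 FPKM in d1 against 21.9, 20.9, 23.2 and 25.7 FPKM in WT. In this gene the d1 level was 37.9% of WT at stage 4 and 34.3% at stage 7. The last 4 genes were within 1 in WT and lower late by at least 1 in d1, with changes of -1.45 to -1.02 (log2), as were 1.28% of all tested genes. One of them, OS03G0305600 on chromosome 3, had 22.5, 15.4, 13.8 and 2.49 FPKM in d1 and 51.1, 24.6, 55.1 and 48.2 FPKM in WT.

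The change from early to late stages averaged over d1 and WT is another contrast than the one that chose the genes, although it uses the same columns, those of stages 2, 4 and 7 included. It was tested over all 19757 genes with limma, with genotype as a term and Benjamini-Hochberg adjustment. At an adjusted p under 0.05, 14 of the 76 genes rose and 0 fell, where 15.5% of all tested genes rose and 16% fell. At an unadjusted p under 0.05 (limma), 26 of the 76 were higher and 2 lower late, where 21.1% and 22.7% of all genes were. The share that rose was 18.4%. The SE of this fit takes in any difference between the genotypes' courses, so genes whose courses differ between d1 and WT have a wide SE. The rule also needs WT at 1 FPKM or more at both late stages, which works against a fall, so nothing about the set is read from these counts, and the values below describe single genes. Of the 14 genes, 10 belonged to the 46 with a d1 change within 1, and in these d1 too was higher late, by 0.29 to 0.96. The other 4 were the genes higher late by at least 1 in both genotypes.

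The largest rise was that of OS04G0604300 on chromosome 4. It had 1.04, 0.674, 4.58 and 4.38 FPKM in d1, against 1.12, 0.981, 13.0 and 23.8 FPKM in WT. The rise over both genotypes was 2.38 ± 0.37 (log2, moderated SE; adjusted p = 0.0079, limma). OS10G0492900 on chromosome 10 had 0.505, 0.974, 6.63 and 5.53 FPKM in d1 and 3.79, 4.30, 27.2 and 34.7 FPKM in WT, and rose by 2.35 ± 0.17 (adjusted p = 0.00078, limma). OS01G0256500 rose by 2.07 ± 0.40 (adjusted p = 0.015, limma), although not past the threshold without stage 1 (adjusted p = 0.086, limma) or without stage 7 (adjusted p = 0.15, limma). In the first 2 of these genes the late values lay above the early values in each genotype, with the d1 values below the WT values at every stage.

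Stage 1 gives the one difference that the rule did not use, and its columns are not shared with the other stages. With 1 combined value per group it cannot be tested. At stage 1, 14 of the 76 genes were lower in d1 by at least 1, or 18.4%, where 0.456% of all tested genes were. A single gene was higher by at least 1, where 1.52% of all tested genes were. The stage 2 limit kept this count down. It left out 15 genes that met the late rule, of which 6 were higher and 2 lower by at least 1 at stage 1. The median difference was -0.37, against 0.02 over all tested genes, and 64 of the 76 genes were below 0, where 45.9% of all tested genes were. No gene had a stage 1 difference below those of both late stages. The rule sets the late differences at -1 or below, which works toward this, so it is no test. WT was under 1 FPKM at stage 1 in 22 genes, which cannot reach -1 on this scale, so the 14 come from the other 54.

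The count depends on how low values are treated. It was 14 to 15 with rescaled columns, 29 with a pseudocount of 0.1, where 1.28% of all tested genes were lower by at least 1, and 2 with a pseudocount of 5, where 0.0709% were. Of the 30 genes with a mean of at least 5 FPKM over the 8 columns, 6 were lower by at least 1 at stage 1, where 0.247% of all such genes were. At stage 2, which the rule limited on the upper side only, 17 genes were lower in d1 by at least 1, where 1.09% of all tested genes were, and the median was -0.48.

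**Figure D4:**
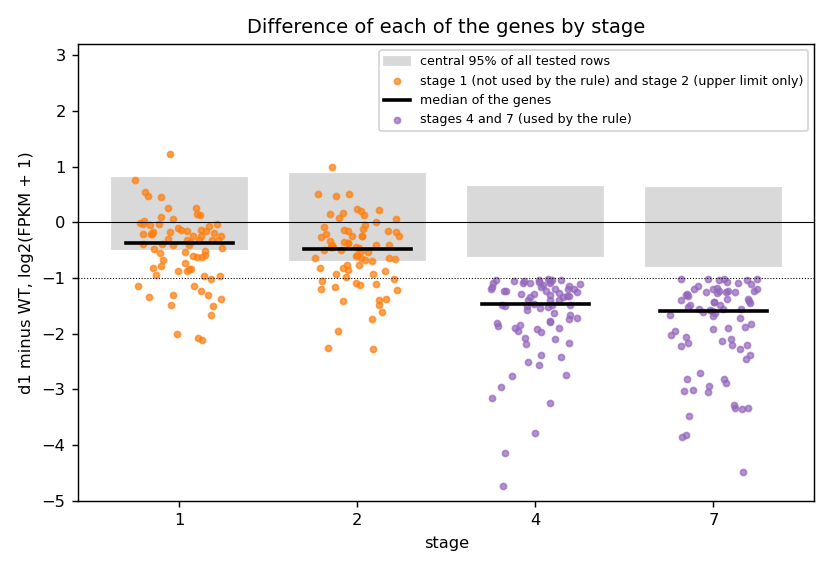
Difference of log2(FPKM + 1), d1 minus WT, for each of the 76 genes at stages 1, 2, 4 and 7. Black bars are medians (-0.37, -0.48, -1.47 and -1.58), grey boxes hold the central 95% of all tested genes, the dotted line marks -1, and horizontal scatter within a stage is for display; at stages 4 and 7 the rule itself places the points below the dotted line.

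The 5 lowest stage 1 differences were those of OS09G0109600 (-2.11), OS03G0723400 (-2.08), OS03G0277300 (-2.00), OS10G0492900 (-1.67) and OS05G0206200 (-1.5). The last of these, on chromosome 5, had 0.00881, 0, 0.0576 and 0 FPKM in d1 at stages 1, 2, 4 and 7, against 1.85, 1.63, 2.65 and 1.95 FPKM in WT. It was thus at or near 0 in d1 at every stage, with a low and level course in WT. The 3 highest were those of OS01G0867450 (1.22), OS02G0622500 (0.76) and OS01G0855700 (0.55), all weakly expressed in d1. Of these, OS02G0622500 on chromosome 2 had 4.33, 2.31, 3.39 and 1.74 FPKM in d1 and 2.16, 2.94, 11.4 and 16.9 FPKM in WT, so that d1 was above WT at stage 1 and far below it at stages 4 and 7.

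A difference of -1 or below at all 4 stages was found for 11 of the 76 genes. Any tested gene with such differences meets the rule, so the same 11 are the 0.0557% of all tested genes that had one. The 2 shares are therefore no comparison. In 10 of the 11 all 4 d1 values lay below all 4 WT values. Over the whole set this held for 36 genes, where it held for 3.91% of all tested genes. The rule's use of stages 4 and 7 works toward such a separation, so these counts are no test. Of the 11 genes, 4 lie on chromosome 5 and 7 on other chromosomes, where chromosome 5 held 1643 of the 19757 tested genes. A link to position was not tested. In the limma fit of d1 against WT over the 4 stages, 4 of the 76 genes had an adjusted p under 0.05 and were lower, where 0.086% of all tested genes were. They are OS05G0146900, OS05G0206200, OS08G0467500 and OS10G0492900. At an unadjusted p under 0.05 (limma) there were 60, where 10.1% of all tested genes were lower. The rule used this contrast at stages 4 and 7, so these counts support nothing, and a gene whose difference opened late has a wide SE in this fit. OS08G0467500 on chromosome 8 had 0.496, 0.791, 2.07 and 2.29 FPKM in d1, against 2.50, 3.08, 9.10 and 7.95 FPKM in WT, so both genotypes were higher late. Its d1 minus WT difference was -1.23, -1.19, -1.72 and -1.44 (log2) at stages 1, 2, 4 and 7.

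The 76 genes lie on all 12 chromosomes. Chromosome 1 held 13, chromosome 3 held 12, chromosome 2 held 9, and chromosomes 4 and 5 held 8 each. The share of a chromosome's tested genes ran from 0.132% on chromosome 7 to 0.499% on chromosome 11, and was 0.487% on chromosome 5, where RGA1 lies. Of the 8 genes on chromosome 5, 5 had identifiers below that of RGA1 and 3 above it, where 631 and 1011 tested genes did.

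In 3 cases 2 of the genes were neighbours by identifier, a pattern seen in the data and not tested. OS02G0259850 had 2.08, 1.05, 2.37 and 2.09 FPKM in d1 and 3.69, 8.87, 21.6 and 22.7 FPKM in WT. Its neighbour OS02G0259900 had 4.07, 2.96, 3.58 and 3.05 FPKM in d1 and 6.84, 12.2, 30.0 and 29.1 FPKM in WT. The d1 level of both stayed under 5 FPKM at every stage, and their late differences were nearly equal (-2.75 and -2.94, against -2.76 and -2.89).

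The pair on chromosome 4 was of higher level. OS04G0107900 had 19.6, 12.2, 32.4 and 15.1 FPKM in d1, against 22.4, 25.8, 75.2 and 129 FPKM in WT. OS04G0108101 had 11.6, 11.5, 24.0 and 12.8 FPKM in d1, against 21.5, 21.6, 59.6 and 96.2 FPKM in WT. Both had their highest d1 value at stage 4 and their highest WT value at stage 7. The pair on chromosome 3 was OS03G0305600, given above, and OS03G0305550, which had 0.650, 0.847, 1.10 and 0.299 FPKM in d1 and 2.22, 1.07, 3.28 and 3.62 FPKM in WT. Whether the genes of a pair overlap, or are similar enough to share reads, cannot be read from the table, so a pair may not be 2 separate measurements. Of the 146 tested genes next to one of the 76 by identifier, 6 (4.11%) were lower in d1 by at least 1 at stage 4 or 7, against 1.65% of all 19681 tested genes outside the set, and their median late difference was 0.00.

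The edge of the set is not sharp. The 3 genes just inside were OS03G0808900, OS01G0159600 and OS01G0887850, with stage 7 differences of -1.007, -1.009 and -1.013, and all had WT levels of 1.01 to 2.08 FPKM at the late stages. The 3 just outside were OS05G0194550 (-0.990 at stage 4), OS06G0142200 (-0.987 at stage 7) and OS01G0775100 (-0.984 at stage 4). At the late stages they were better expressed, with WT levels of 5.29 to 50.2 FPKM. A further 15 genes met the late rule and were left out because d1 was above WT by at least 1 at stage 2.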

How the data were processed

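Total RNA of 16 libraries was sequenced to about 40 M reads of 150 bases each, per the labels. The deposited values are FPKM that the authors made with FastQC, Trimmomatic, TopHat2, Cufflinks and Cuffdiff on build IRGSP-1.0, per the submitters' processing notes, which give no versions. The unit was inferred from these tools and the values. Each of the 8 columns combines the 2 libraries of a group, and no source used here says how the columns were scaled. Of 34302 rows, 19757 passed the filter (1 FPKM or more in 2 or more columns) and were analysed as log2(FPKM + 1), a scale that understates changes of low genes. A row that joins several names (54 of them) was left as it is, and 0 of the 76 genes is such a row. The reference gene table (assembly ASM3414082v1) matched 2 rows and 0 of the 76 genes.

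In 1 limma 3.58.1 fit (R 4.3.3), genotype was tested with stage as a block, and late against early stages with genotype as a term. The fit was moderated with an abundance trend and had 3 residual and 2.54 prior degrees of freedom. Only the late against early test was checked on simulated data, with equal rises planted in both genotypes. It recovered 41.6% of rises of 0.5 (log2), 75.2% of 1 and 90.8% of 2. Courses that differ between d1 and WT were not simulated. In each run 200 genes were changed and all others were flat over the stages, whereas 15.5% of all tested genes rose and 16% fell in the data. The recovered shares thus need not hold for the real fit. The SE and p-values of the fit measure how the d1 minus WT difference varies between stages, not the spread between plants. Differences at single stages have no test. Genes named are the 6 with the lowest mean late difference, the 5 with the highest WT mean, 3 on each side of the threshold, those with the 5 lowest and 3 highest stage 1 differences, and the 3 largest rises; others were chosen after their values were seen. The genes and lists were chosen with earlier results of these data known. Alternatives were other pseudocounts, filters, scalings, thresholds and stages left out. No sequence is shown, since no table used here links one to these identifiers. The lists of tissue markers and gene groups by name or product could not be applied for the same reason.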

Additional observations from a re-analysis of the deposited data

Results flagged for a closer look

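In 2 of the 76 genes the d1 and WT levels changed in opposite directions by at least 1 from the early to the late stages, with WT higher and d1 lower, as in 0.111% of all tested genes. The differences were not tested, since each group has 1 combined value, and the rule that chose the genes favours such courses. OS01G0654400 changed by -1.46 (log2) in d1 and by 1.39 in WT, with 8.16, 7.34, 3.37 and 1.30 FPKM in d1 at stages 1, 2, 4 and 7 against 8.87, 6.14, 24.7 and 17.8 FPKM in WT. OS01G0867450 changed by -1.61 in d1 and by 1.23 in WT. It is also the one gene that was higher in d1 by at least 1 at stage 1, with a difference of 1.22. Its levels were 1.33, 4.26, 0.311 and 0 FPKM in d1 and 0, 1.64, 2.09 and 3.68 FPKM in WT, so every value is low.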

How the results depend on the processing

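The set itself depends on how low values are treated. The rule kept 141 genes with a pseudocount of 0.1 (73 of the 76 among them), 27 with a pseudocount of 5, 30 at a mean of at least 5 FPKM and 27 at a threshold of -1.5, each of the last 3 lists lying within the 76. It kept 72 to 91 under the other alternatives. The stage 1 count of 14 became 29, 2 and 6 under these pseudocounts and the higher filter, and the median stage 1 difference of -0.37 became -0.64 and -0.15 under the pseudocounts. It stayed negative in all 6 alternatives tried. The 14 genes that rose late became 8 at a mean of at least 5 FPKM, where 30 were tested, 8 without stage 1 and 8 without stage 7. The 0 that fell became 1 at that filter, 1 after median scaling, 1 without stage 4 and 1 for stage 7 against stage 1 alone. The count of 4 genes called lower over the 4 stages became 2 with a pseudocount of 5 and 1 with no filter. The cause was not tested, except that the higher filter and the stages left out leave fewer genes or columns. No paired analysis was possible because the columns combine the replicates, and for the same reason no replicate could be left out. Without depth or replicates, values near 0 FPKM cannot be told from 0.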

Other observations

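The 27 genes that were higher in d1 by at least 1 at both late stages, with a stage 2 difference above -1, were looked at in the same way at stage 1. Of these, 11 were higher in d1 by at least 1 at stage 1 and 1 was lower, where 1.52% of all tested genes were higher and 0.456% lower. Among the 15 genes that met the late rule but were left out by their stage 2 difference, 2 were lower and 6 higher in d1 by at least 1 at stage 1, to be read against the same shares.

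OS11G0139700 and OS12G0136500, chosen after their values were seen, lie on chromosomes 11 and 12, whose ends are known to share a duplicated segment in rice. The first had 7.12, 8.12, 9.72 and 14.0 FPKM in d1 against 9.43, 19.5, 29.6 and 31.0 FPKM in WT. The other had 13.2, 14.5, 14.7 and 24.2 FPKM in d1 against 13.3, 23.4, 38.7 and 61.4 FPKM in WT. Whether the genes are copies of each other was not tested.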
